A study of Mus musculus with 12 samples.

Results

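Ets1, Fli1, Erg and Etv6 encode 4 transcription factors of the ETS family, and their loci were followed here through DNase-seq peak lists of blood progenitors cultured with or without a Notch ligand. Each locus was taken as the mouse gene body (mm10, GENCODE) plus 50 kb on either side. Every DNase I hypersensitive site (DHS, a stretch of chromatin open to the nuclease) with any part in it was a member. Merging the peaks of all 12 libraries wherever they shared at least 1 bp gave 170207 sites on the autosomes and X, of which 207 lay at these loci: 21 at Ets1, 50 at Fli1, 70 at Erg and 66 at Etv6. The gene bodies are chr9:32636221-32757820 for Ets1 (plus strand), chr9:32422204-32542861 for Fli1 (minus strand), chr16:95359169-95586593 for Erg (minus strand) and chr6:134035700-134270158 for Etv6 (plus strand). Fli1 and Ets1 are neighbours on chromosome 9, with 93.4 kb between their bodies, so a site in reach of both was given to the nearer gene. Membership of a site used position only and no measured value, whereas the genes were chosen with earlier results of these data known.

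All cells came from C57BL/6J mice. LSK cells (3 libraries) were lineage-negative, Sca-1-positive, KIT-positive marrow progenitors taken without culture. The other groups were LSK cells grown in SCF, FLT-3 ligand, IL-6 and IL-11, either on immobilized Delta1ext-IgG, a Notch ligand fused to an antibody tail, at its high density, or on human IgG1 as the control without ligand (IgG, 3 libraries). From the Delta1 cultures, DN1 cells (KIT++CD44+CD25-, 2 libraries) were sorted from medium without IL-7, and DN2a (KIT++CD44+CD25+, 2 libraries) and DN2b cells (KIT+CD44loCD25+, 2 libraries) from medium with IL-7. IL-7 is named for Delta1 cultures, and whether IgG cultures received it is not given in the sources used here. DN1 and IgG cells thus differed in ligand and in the sort, and perhaps in IL-7. In DN1 against DN2b the effects of stage and of IL-7 cannot be told apart. In LSK against DN2b those of culture, ligand, IL-7 and stage cannot be told apart. The same holds for culture, ligand and stage in LSK against DN1, and for culture and stage, and perhaps IL-7, in LSK against IgG. According to the study's methods, cells of the DN stages were isolated from each LSK replicate. The labels do not say which libraries share an isolate.

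ETS factors share a winged-helix DNA-binding domain that recognizes a GGAA core, and all 4 members also carry a pointed domain for protein contacts. ERG and FLI1 are close relatives that maintain haematopoietic stem and progenitor cells and act in megakaryocytes and endothelium. ETS1 is the family member best known for high expression in T cells. ETV6 (TEL) is mainly a repressor, needed by stem cells of adult marrow and often rearranged in leukaemia. Early T cell precursors that commit to the lineage generally silence stem cell regulators of this kind while they open T cell genes, and Notch signalling starts that programme.

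The lists held 32952 to 37511 peaks in the IgG libraries and 53869 to 111582 in the others, the longest being DN2b replicate 2 (111582) and DN1 replicate 1 (96436). Read depth is not given in the sources used here, so list length stands in for it. Each peak carried 1 whole-number score whose meaning is not stated, and it was used only as a rank: a site's level is the percentile of its highest peak within its own library, with 0 where the library had no peak. A level of 0 may thus be a site just below the peak caller's threshold. The promoters of the cell type markers matched the labels in part. Of 12 T lineage promoters, 0 were open in the IgG libraries, 1 to 3 in LSK, 5 in each DN1, 8 in each DN2a and 10 to 11 in DN2b. Of 10 myeloid promoters, 6 to 7 were open in IgG against 2 to 4 elsewhere, with Ngp, a neutrophil granule gene, open in the 3 IgG libraries alone. Of 6 NK cell promoters, 0 were open in IgG, 0 to 3 in LSK and 4 to 5 in the DN groups. Erythroid and megakaryocyte promoters numbered 3 to 6 of 8 in the LSK and DN libraries and 0 to 1 in IgG, without Gata1 in any. B cell promoters numbered 1 to 3 of 8 and mast cell promoters 0 to 2 of 7. Of 10 stem and progenitor promoters, 6 to 7 were open in LSK, 6 in each DN1, 5 to 6 in DN2a, 6 in each DN2b and 2 to 5 in IgG, so that the count did not fall along the DN stages, and those of Ly6a (which encodes Sca-1), Mecom and Hoxa9 had no peak in any library. Ptcra had no peak in any library and Gata3 only in DN2b replicate 2. The part of other cell types in the results below was not tested, and fewer cells with an open site cannot be told apart from a weaker site in each cell.

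The number of open sites at the 4 loci together was 51, 49 and 54 in the LSK libraries, 76 and 64 in DN1, 73 and 53 in DN2a, 75 and 134 in DN2b, and 53, 34 and 31 in IgG. DN2b replicate 2 thus held 64.7% of the sites at these loci, close to the 63.5% it held of all sites. Of the 207 sites, 81 (39.1%) had a peak in a single library, against 32.7% of all sites, and 44 of those 81 (54.3%) were in DN2b replicate 2, against 39.6% of all single-library sites. Most sites were intronic, namely 63 of 70 at Erg, 47 of 66 at Etv6, 31 of 50 at Fli1 and 15 of 21 at Ets1.

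**Figure D1:**
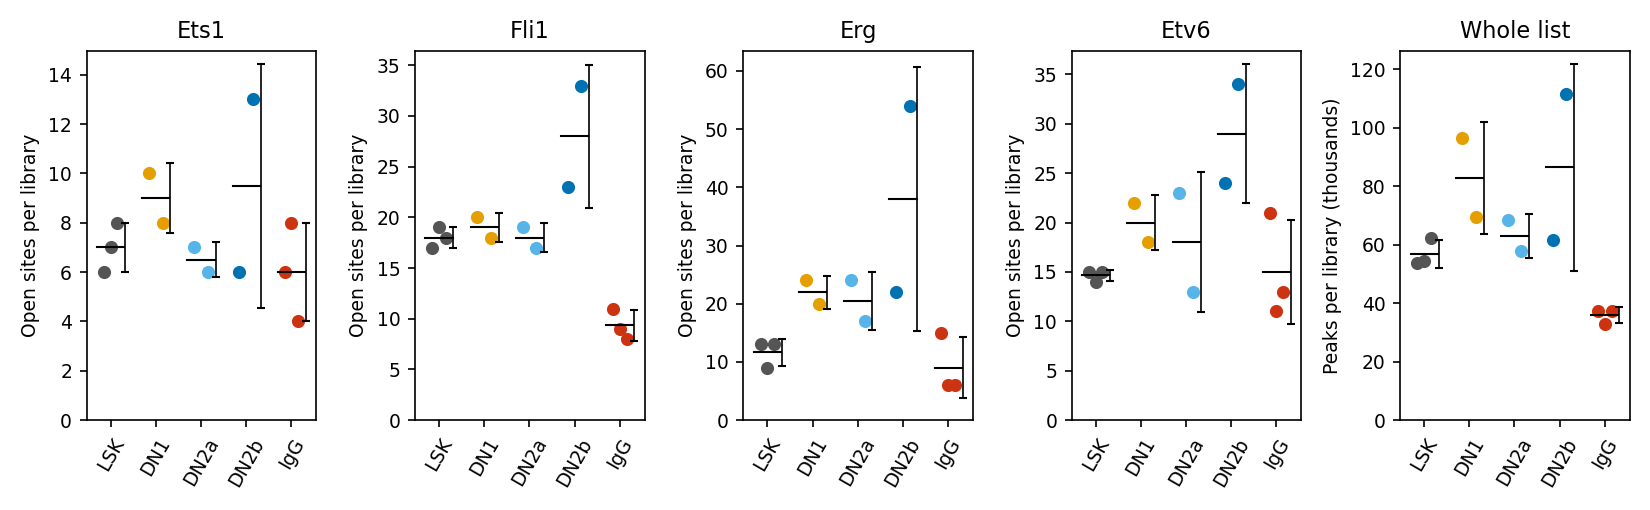
Open sites per library at each locus (4 panels) and the length of each library's peak list in units of 1000 peaks (right panel). Points are libraries, horizontal lines group means and bars 1 SD; Erg runs from 9 to 13 sites in LSK to 54 in DN2b replicate 2, which also has the longest list.

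Sites open in all 12 libraries were few, 8 of 207 (3.86%), against 7.68% of all sites. They comprised 4 at Fli1, 2 at Ets1, 2 at Etv6 and 0 of the 70 at Erg. On the map of open sites, few Erg sites stand in every row. In what follows a site is named by its gene and the distance in kb of its middle from the gene's annotated 5′ end, positive in the direction of transcription.

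**Figure D2:**
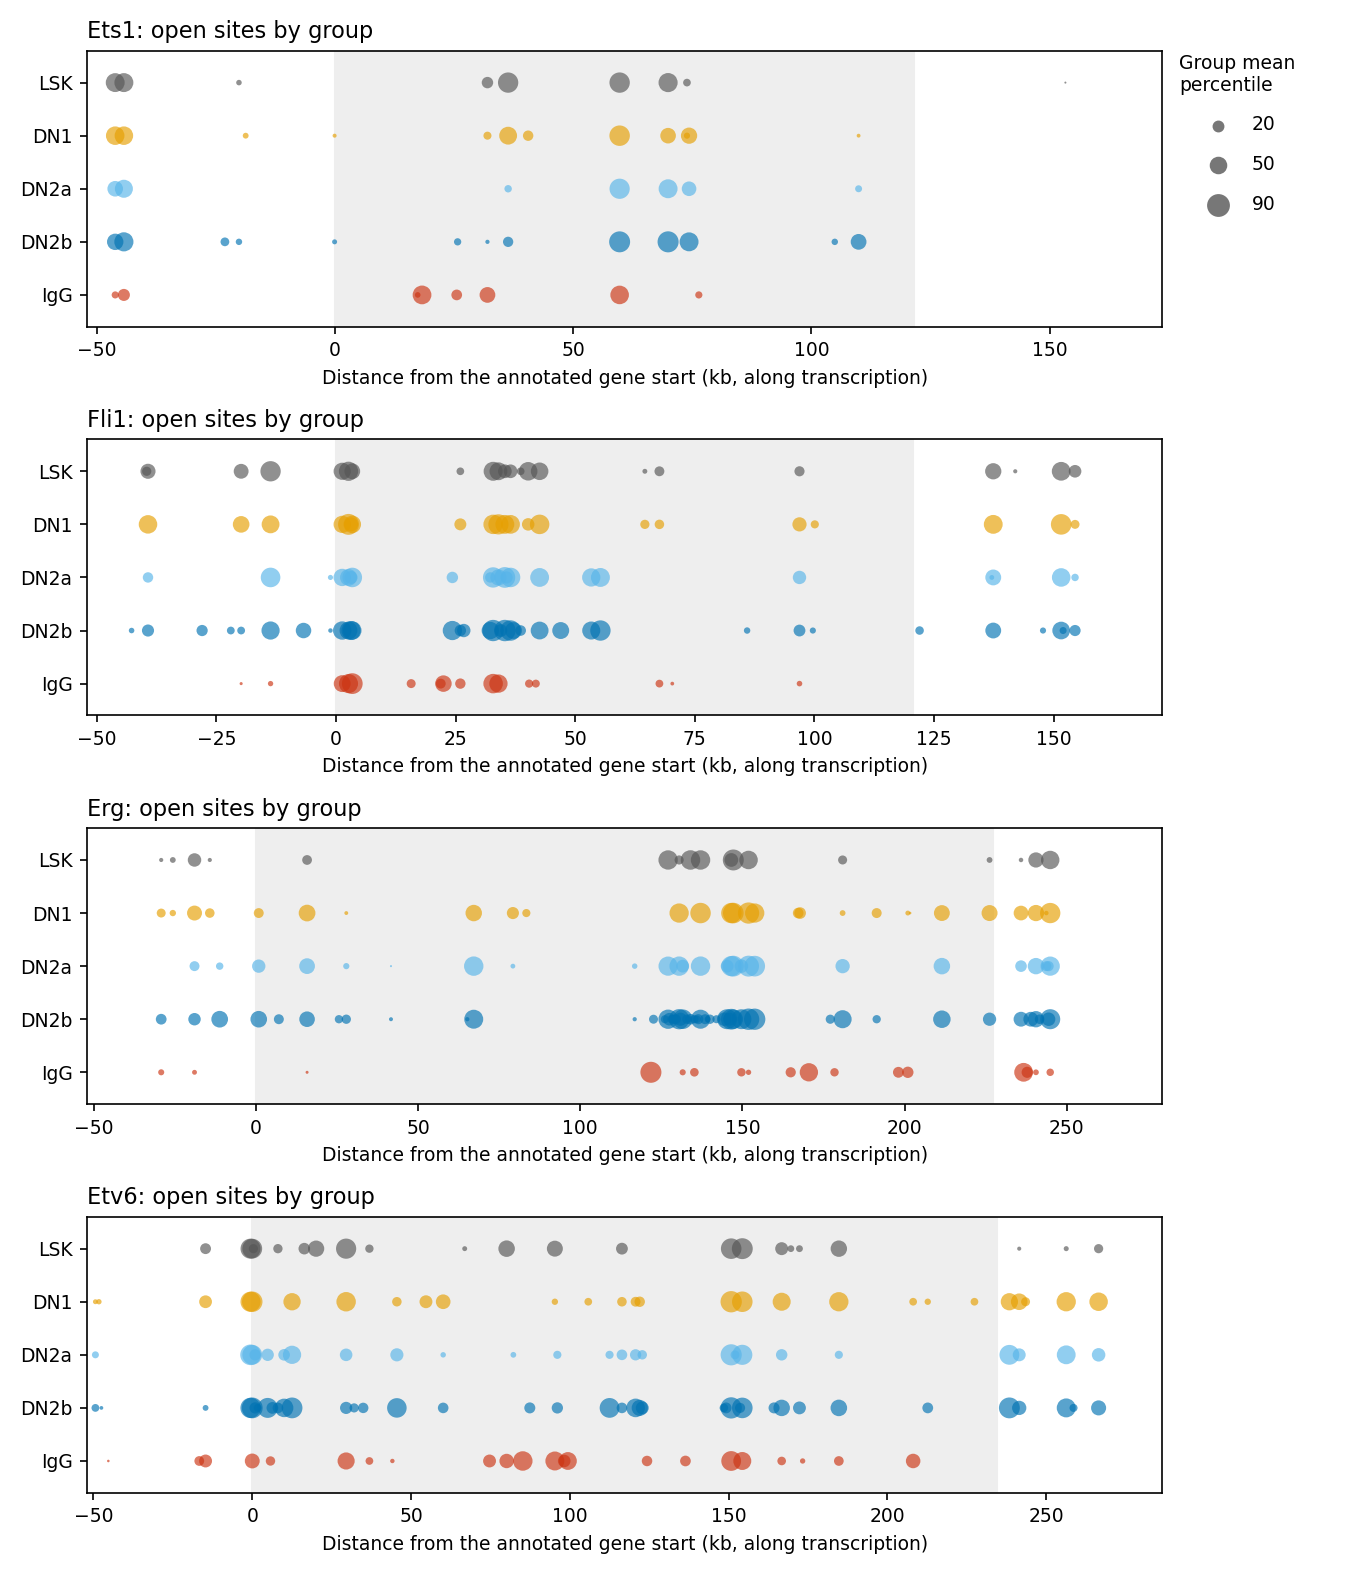
Open sites along each locus, by distance from the annotated gene start in kb, with the gene body shaded. Each disc is a site, 1 row per group, and its area follows the group mean percentile (0, no disc). At Erg the stretch between 121.8 and 151.8 kb is crowded in the DN2b row alone, with 29 of its 30 sites, against 6 in LSK, 4 in DN1, 8 in DN2a and 4 in IgG. This rests on 1 library, since 19 of the 30 sites have a peak only in DN2b replicate 2.

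Differences were tested by limma on the percentiles of the 114527 sites with a peak in at least 2 libraries, with Benjamini-Hochberg adjustment over all of them; 126 of the 207 sites at these loci entered (13 at Ets1, 32 at Fli1, 41 at Erg and 40 at Etv6). A site could enter through the group where it was open, and the shares called are therefore set beside those of all sites. Where a group is at 0 in every library its spread is nil, so the adjusted p of such a site mainly restates which libraries had a peak. From LSK to DN2b, 39 of the 126 sites were higher (background 16.4%) and 8 lower (background 4.76%). From DN1 to DN2b, 25 were higher (background 8.04%) and 7 lower (background 8.22%). From LSK to DN1 the counts were 16 higher (background 13.8%) and 6 lower (background 2.35%), so that the share higher was close to the background. From LSK to IgG, 8 were higher (background 4.79%) and 23 lower (background 16.4%). From IgG to DN1, 38 were higher (background 31.8%) and 10 lower (background 4.37%). Counted without a test, as a peak in every library of a group and in none of the other, 11 of the 207 sites appeared from LSK to DN1 (background 7.77%) and 4 disappeared (background 1.17%). From DN1 to DN2b 19 appeared (background 4.24%) and 4 disappeared (background 5.27%), from LSK to DN2b 32 (background 9.06%) and 5 (background 2.73%), from LSK to IgG 7 (background 2.51%) and 15 (background 7.87%), and from IgG to DN1 29 (background 17.9%) and 7 (background 2.48%). These contrasts share libraries and are not independent of each other.

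List length moved these counts. With each list cut to its 32952 highest-scoring peaks, 86 sites at these loci could be tested, and the balance of higher to lower calls shifted. From LSK to DN1 it became 7 higher (background 8.73%) to 7 lower (background 6.87%). From LSK to DN2b it became 24 (background 14%) to 11 (background 11.2%), and from DN1 to DN2b 21 (background 9.48%) to 9 (background 7.99%). From LSK to IgG it became 11 (background 12.7%) to 16 (background 15.1%), and from IgG to DN1 17 (background 16.6%) to 12 (background 13%). The excess of higher calls in DN2b over the background was thus present at both list lengths. DN2b replicate 2 weighed on this. Without it 112 sites at the loci could be tested, of which 21 (18.8%) were higher from LSK to DN2b, against 10.2% of all sites in the same fit. From DN1 to DN2b 14 (12.5%) were then higher, against 4.51%, and 13 (11.6%) lower, against 12.8%. Other libraries mattered too. Without DN1 replicate 1, 10 of 121 sites were higher from LSK to DN1 (8.26%, against 7.33% of all sites). Without IgG replicate 3, 16 of 123 were higher from LSK to IgG (13%, against 5.71%) and 17 lower from IgG to DN1 (13.8%, against 5.43%). The sites lower from DN1 to DN2b numbered 4 without DN1 replicate 1 (3.31%, against 4.32%), 4 without any 1 of the IgG libraries (3.25% to 3.48%, against 7.61% to 7.85%), and 3 without DN2b replicate 1 (2.54%, against 6.55%). The median change over the 126 tested sites was 6.74 percentile points from LSK to DN2b, against 4.38 over all sites, and 1.47 from DN1 to DN2b, against 0. It lay below that of all sites from LSK to DN1 (0 against 4.4) and from IgG to DN1 (6.59 against 15.2), and it was 0 from LSK to IgG, against -1.32.

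**Figure D3:**
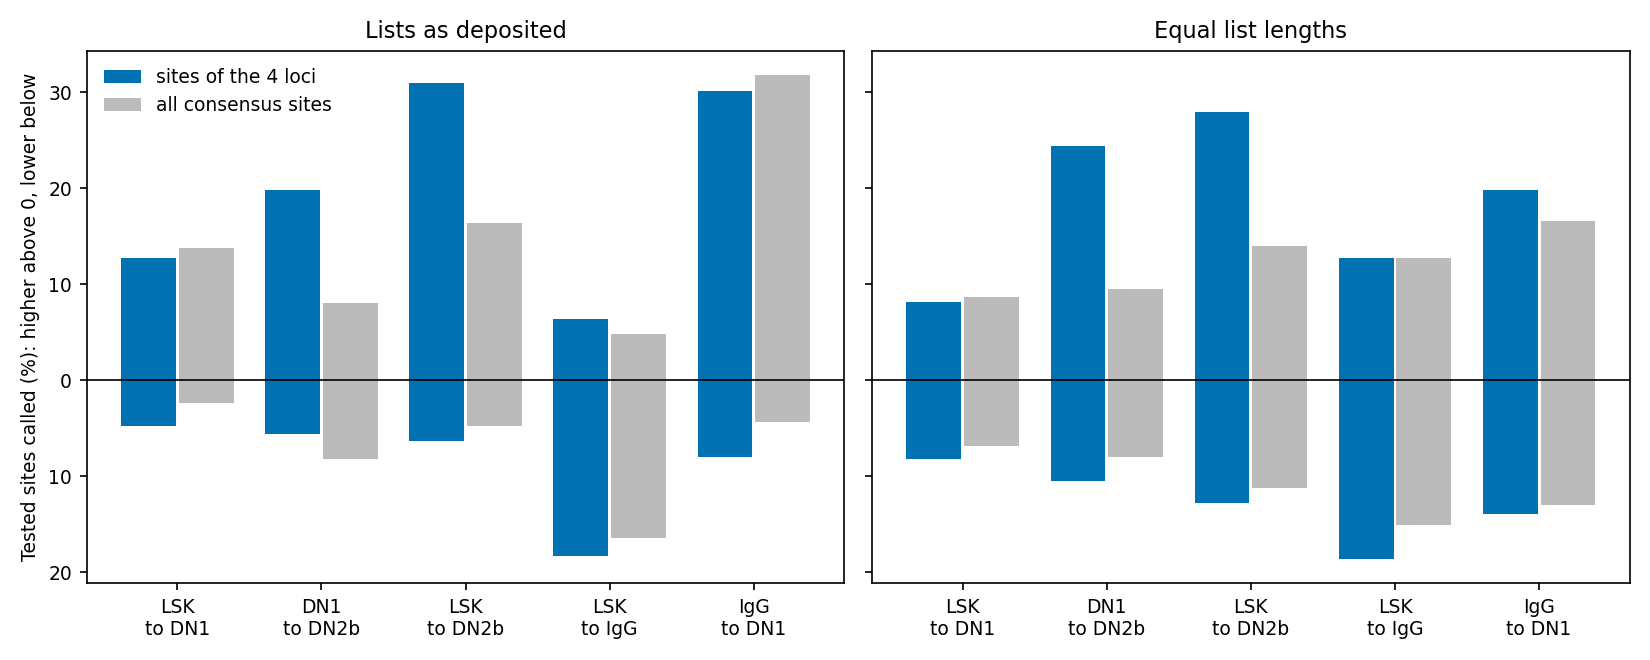
Percent of tested sites called by limma in each contrast, higher in the second group above 0 and lower below 0, for the 4 loci (blue) and all consensus sites (grey). The left panel uses the lists as deposited and the right panel lists of equal length; for DN2b against LSK or DN1 the blue bars above 0 exceed the grey in both panels.

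By locus, 13 of 41 tested sites (31.7%) at Erg were higher from LSK to DN2b, 12 of 32 (37.5%) at Fli1, 11 of 40 (27.5%) at Etv6 and 3 of 13 (23.1%) at Ets1, against 16.4% of all sites. The 3 Ets1 calls include +69.9, whose direction depends on merging, as given below. At equal list lengths Ets1 had 1 of 9 (11.1%), below the 14% of all sites, and the other loci stood at 26.7% to 33.3%. Lower in DN2b than in LSK on the lists as deposited were 1 at Erg (2.44%), 3 at Fli1 (9.38%), 3 at Etv6 (7.5%) and 1 at Ets1 (7.69%), against 4.76%. Between DN1 and DN2b, 8 sites at Erg (19.5%), 8 at Fli1 (25%), 7 at Etv6 (17.5%) and 2 at Ets1 (15.4%) were higher, against 8.04%. Lower in that contrast were 1, 5, 0 and 1 (2.44%, 15.6%, 0% and 7.69%, against 8.22%). At equal list lengths Fli1 had 5 of 21 lower (23.8%, against 7.99%) and 6 higher (28.6%, against 9.48%). From LSK to IgG, 7 sites at Erg (17.1%), 8 at Fli1 (25%), 4 at Etv6 (10%) and 4 at Ets1 (30.8%) were lower, against 16.4% of all sites. Higher in IgG were 3, 1, 3 and 1 (7.32%, 3.12%, 7.5% and 7.69%, against 4.79%). Each locus has few sites, and whether loci differ was not tested.

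At Erg, which encodes a stem cell regulator, the sites crowded into part of the gene. The 30 kb with the most sites, between 121.8 and 151.8 kb from the start, held 30 of the 70, against 19 of 50 in the densest 30 kb of Fli1, 13 of 66 at Etv6 and 7 of 21 at Ets1. Of those 30 Erg sites, 19 had a peak only in DN2b replicate 2, and 11 could be tested. In the stretches of Fli1, Etv6 and Ets1, sites with a peak only in that library numbered 2, 0 and 1. The higher count at Erg thus rests on that library. The Erg stretch was picked for its number of sites after they had been seen. Sequences of 3 Erg sites are given because they stand for the patterns found there, open with Delta1 only, open everywhere but IgG, and open in IgG only. They are 150 bp peaks read from the forward strand of GRCm38 (mm10), as RefSeq supplies it, with the ETS core GGAAG or its reverse complement CTTCC in capitals.
Erg +153.8, chr16:95432777-95432926: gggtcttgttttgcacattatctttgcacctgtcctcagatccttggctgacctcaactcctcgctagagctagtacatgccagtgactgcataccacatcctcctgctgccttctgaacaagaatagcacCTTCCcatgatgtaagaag
Erg +147.2, chr16:95439297-95439446: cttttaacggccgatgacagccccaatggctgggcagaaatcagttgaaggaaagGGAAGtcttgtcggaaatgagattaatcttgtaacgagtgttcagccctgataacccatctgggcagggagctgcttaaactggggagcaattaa
Erg +121.8, chr16:95464697-95464846: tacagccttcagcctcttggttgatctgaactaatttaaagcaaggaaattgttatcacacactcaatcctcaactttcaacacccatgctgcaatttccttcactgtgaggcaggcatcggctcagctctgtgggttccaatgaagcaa

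The Erg +153.8 site had no peak in the 3 LSK or the 3 IgG libraries and stood at percentiles 77.2 and 78.5 in DN1, 88.5 and 90.6 in DN2a, and 93.1 and 96.7 in DN2b. It was open in each library that had been grown on Delta1 and in no other, and its rank was highest in DN2b. From DN1 to DN2b it rose by 17.0 ± 2.63 percentile points (SE, adjusted p = 0.00225).

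The Erg +67.2 site, also intronic, showed the same restriction at 62.0 and 51.5 in DN1, 77.8 and 80.0 in DN2a, and 65.6 and 85.0 in DN2b. So did Erg +0.9, just inside the annotated 5′ end of the gene, at lower ranks: 16.1 and 25.1 in DN1, 37.1 and 37.5 in DN2a, and 35.8 and 79.6 in DN2b. With Erg +211.5 (58.0 and 47.4 in DN1, 50.6 to 72.3 in DN2) these made 4 sites open in all 6 Delta1 libraries only. Of the 207 sites 7 had this pattern (3.38%; background 1.9%), the others being Etv6 +12.5, Etv6 +238.4 and Ets1 +74.3. Most of this was lost at equal list lengths, where 3 sites of the 4 loci had the pattern (background 1.86%), 2 at Etv6 and 1 at Erg, namely +153.8. Erg +67.2 and +211.5 then had peaks in the 4 DN2 libraries only, and Erg +0.9 in 1 DN2b library.

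An internal start of Erg, used by several shorter annotated transcripts, behaved otherwise. This site, Erg +127.1, stood at 76.4, 79.9 and 78.7 in LSK, at 0 in both DN1 libraries, at 74.5 and 80.0 in DN2a, at 68.9 and 87.1 in DN2b and at 0 in the 3 IgG libraries. It was open before culture, lacked a peak at DN1 and had one again at DN2a and DN2b, where its ranks overlapped those of LSK. The change was -78.3 ± 4.82 from LSK to DN1 (adjusted p = 9.65e-06) and 78.0 ± 5.28 from DN1 to DN2b (adjusted p = 1.91e-05), and presence was the same with lists of equal length. The DN1 cells came from medium without IL-7 and the DN2 cells from medium with it, so stage and IL-7 cannot be told apart here.

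Erg +134.0, further into the gene, was an LSK site that did not return in this way: 83.6, 72.2 and 82.9 in LSK, 47.0 in DN2b replicate 2 and 0 in every other library. It was lower from LSK to DN1 (-79.6 ± 11.1, adjusted p = 0.00125), to DN2b (-56.0 ± 11.1, adjusted p = 0.00643) and to IgG (-79.6 ± 9.9, adjusted p = 0.0005).

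Of the Erg sites ranked high in LSK cells, others were open in every Delta1 library and had no peak, or a low-ranked one in 1 library, in IgG. Erg +147.2 stood at 86.9, 92.2 and 96.9 in LSK, 91.4 and 86.4 in DN1, 88.5 and 93.1 in DN2a, 73.6 and 84.2 in DN2b and 0 in the 3 IgG libraries. Erg +137.1 likewise stood between 68.9 and 89.1 in the 9 LSK and DN libraries and at 0 in IgG. From IgG to DN1 these sites were higher by 88.9 ± 4.19 (adjusted p = 9.27e-07) and 87.7 ± 4.1 (adjusted p = 8.89e-07). Erg +151.9 was not quite absent, with a peak at 17.9 in IgG replicate 1, against 64.3 to 97.7 in the 9 LSK and DN libraries. Erg +244.9 had one at 35.0 in IgG replicate 3, against 62.0 to 88.7.

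Of the 207 sites, 8 were open in the 9 LSK and DN libraries and in no IgG library (3.86%; background 3.17%): 4 at Fli1, 2 at Erg, and 1 each at Etv6 and Ets1. On these lists the share was close to that of all sites, and the IgG lists were the shortest. At equal list lengths 4 of 123 sites had this presence (3.25%, background 1.95%), 2 at Erg and 1 each at Fli1 and Etv6. Conversely, on the lists as deposited 6 sites were open in the 3 IgG libraries only (2.9%, background 1.89%), 3 of them at Erg. At equal list lengths 8 sites had this presence (6.5%; background 6.24%). Erg +121.8 stood at 95.6, 94.3 and 87.9 in IgG and at 0 in the 9 others, which placed it among the top-scoring peaks of those libraries. Erg +170.5 (66.6, 58.8 and 85.7) and Erg +236.7 (89.0, 68.2 and 64.2), the latter beyond the 3′ end of Erg in an intron of the antisense gene Gm31641, were open in IgG alone as well. No site with this presence lay at Fli1, where +22.5 came closest (92.2, 79.1 and 0 in IgG, 0 elsewhere). Myeloid marker promoters were more often open in these same libraries, as given above.

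Several Erg sites were open in DN2b and in DN2a replicate 1 but not in DN2a replicate 2. Erg +145.3 stood at 68.5 and 0 in DN2a and at 77.5 and 89.6 in DN2b, and at 0 elsewhere. Erg +131.6 (68.5 and 0 in DN2a, 81.0 and 80.1 in DN2b) and Erg +149.7 (76.2 and 0, 80.3 and 85.4) did the same, apart from a peak in IgG replicate 1 at 23.7 and 44.5. The split between the DN2a libraries was counted over the 4 loci after it had been seen at Erg. Of the 68 sites open in both DN2b libraries, 16 (23.5%) were open in DN2a replicate 1 and not in replicate 2, against 14.6% of such sites genome-wide, and 2 (2.94%) the other way round, against 4.16%. At equal list lengths these shares were 16.3% against 5.66% and 4.65% against 6.03%. The DN2a libraries thus did not hold the same set of later-stage sites at these loci; no test was made.

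Fli1, the closest relative of Erg, is represented by the following peaks, shown for being open in DN2 cells only (+55.3 and +53.4) or in all but the IgG cells (+42.6). They are given as for Erg.
Fli1 +55.3, chr9:32487517-32487666: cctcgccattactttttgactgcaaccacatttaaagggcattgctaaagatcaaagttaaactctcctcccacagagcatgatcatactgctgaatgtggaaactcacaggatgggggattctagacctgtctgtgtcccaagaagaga
Fli1 +53.4, chr9:32489437-32489586: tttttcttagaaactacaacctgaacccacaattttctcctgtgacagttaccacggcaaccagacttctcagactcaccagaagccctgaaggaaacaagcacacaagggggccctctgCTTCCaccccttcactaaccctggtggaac
Fli1 +42.6, chr9:32500197-32500346: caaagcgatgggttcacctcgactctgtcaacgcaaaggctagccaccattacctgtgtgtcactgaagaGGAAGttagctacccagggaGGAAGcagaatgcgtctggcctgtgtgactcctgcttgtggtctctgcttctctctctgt

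Fli1 +55.3 had no peak in LSK, DN1 or IgG and stood at 77.8 and 72.1 in DN2a and at 80.3 and 93.0 in DN2b. Fli1 +53.4, also intronic, stood at 74.5 and 65.3 in DN2a and at 57.5 and 79.0 in DN2b, and at 0 in the rest. Together they were the only sites of the 4 loci open in all 4 DN2 libraries and in no other (0.966%; background 0.758%). These sites were picked for that presence, and no test is given for them. At equal list lengths both kept their presence in the 4 DN2 libraries and absence elsewhere.

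Fli1 +24.3 followed in DN2b (72.8 and 82.4) and DN2a replicate 1 (54.9), with 0 in the 9 other libraries. Another 4 Fli1 sites, +47.0, +37.1, -6.8 and -28.0, were open in both DN2b libraries only, at 25.6 to 54.3 in replicate 1 and 27.2 to 73.0 in replicate 2, as was Erg +238.9 (5 of 207, 2.42%, background 1.86%). At equal list lengths 3 of 123 sites had this presence (2.439%, background 1.675%), 1 at Fli1 and 2 at Etv6. Fli1 +35.3 and +36.5 were open in DN1 and DN2 cells at 65.9 to 98.6, in LSK at 0 to 62.8 and in IgG at 0, and both were higher from LSK to DN2b (adjusted p = 0.0364 and 0.00636).

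A site with the opposite course lay close by, 1 of the 5 Fli1 sites called lower from DN1 to DN2b. Fli1 +34.0, in an exon of non-coding genes annotated inside Fli1, stood at 72.4, 57.2 and 70.5 in LSK, 84.0 and 86.4 in DN1, 53.1 and 56.2 in DN2a, 42.3, 83.3 and 85.2 in IgG and 0 in both DN2b libraries. DN2b was the only group without it, and DN2a the lowest of the Delta1 groups that had it. The fall from DN1 to DN2b was -85.2 ± 12.8 (adjusted p = 0.00188). From LSK to DN2b it was -66.7 (adjusted p = 0.00331). That call was lost at equal list lengths (-42.7, adjusted p = 0.072) and on the upper 50% of each list (-33.4, adjusted p = 0.259). Its neighbour Fli1 +32.9 was open in all 12 libraries at 71.6 to 95.7 and was higher from LSK to DN2b by 20 ± 5.18 (adjusted p = 0.0244), and at equal list lengths by 30.3 (adjusted p = 0.0314). Other Fli1 sites lower from DN1 to DN2b included +2.6, -19.8 (-45.17, adjusted p = 0.0065) and +42.6 (-13.25, adjusted p = 0.0372). The calls at -19.8 and +42.6 were lost at equal list lengths.

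Fli1 +40.2 was mainly an LSK site (56.8, 82.0 and 77.1), with 65.5 in DN1 replicate 1 and no peak elsewhere, and it was lower in DN2b (-72.0 ± 15.9, adjusted p = 0.0114) and in IgG (-72.0 ± 14.2, adjusted p = 0.00663). Fli1 +42.6 was open in all LSK and DN libraries at 59.8 to 80.4 and in no IgG library (LSK to IgG -64.6 ± 2.93, adjusted p = 9.22e-07). The distal sites +137.4 and +151.6, downstream of Fli1 towards and inside Kcnj1, a potassium channel gene, had the same presence, at 42.7 to 76.2 and 58.6 to 89.1 in the 9 LSK and DN libraries.

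Upstream of Fli1, the -13.7 site stood at 88.4, 82.7 and 88.3 in LSK, 59.0 to 84.7 in the DN libraries and 17.9, 0 and 0 in IgG (LSK to IgG -80.5 ± 6.78, adjusted p = 4.37e-05). The site at the promoter itself differed less, although sites next to it were called. The site at the start of the transcript Fli1-201, Fli1 +1.3, was open in all 12 libraries at 44.7 to 80.6 and was called in no contrast. Fli1 +2.6, also open in all 12 libraries, was lower from DN1 to DN2b. Fli1 +3.2, with a peak in 5 libraries, was higher from LSK to DN2b. Fli1 +3.4, in the first intron, was open in all 12 libraries. It was higher in IgG (91.9, 90.9 and 87.4) than in LSK (38.6, 65.0 and 52.7, change 38.0 ± 7.95, adjusted p = 0.00892). No other Fli1 site was called higher from LSK to IgG.

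Etv6, the repressor of the 4, is shown by peaks open with Delta1 only (+12.5), in LSK and IgG cells but never with Delta1 (+80.1), and in IgG cells only (+85.2).
Etv6 +12.5, chr6:134048137-134048286: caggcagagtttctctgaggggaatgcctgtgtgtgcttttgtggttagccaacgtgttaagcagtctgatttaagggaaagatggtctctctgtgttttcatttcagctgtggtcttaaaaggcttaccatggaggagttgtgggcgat
Etv6 +80.1, chr6:134115717-134115866: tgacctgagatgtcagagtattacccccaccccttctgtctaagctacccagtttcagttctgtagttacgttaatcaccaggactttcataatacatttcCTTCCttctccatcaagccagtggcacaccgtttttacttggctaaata
Etv6 +85.2, chr6:134120817-134120966: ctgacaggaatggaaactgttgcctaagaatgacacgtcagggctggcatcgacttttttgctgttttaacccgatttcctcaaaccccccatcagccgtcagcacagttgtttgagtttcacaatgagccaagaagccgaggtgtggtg

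Etv6 +12.5, in the first intron of the gene, had no peak in LSK or IgG and stood at 65.5 and 60.2 in DN1, 71.6 and 67.7 in DN2a, and 88.9 and 92.0 in DN2b. Its rank was higher in DN2b than in DN1 (27.6 ± 2.99, adjusted p = 0.000292). Etv6 +238.4, past the 3′ end of the gene, showed the same order at 63.2 and 61.8 in DN1, 91.6 and 73.1 in DN2a and 89.8 and 92.7 in DN2b. Etv6 +256.3 differed from these by a weak peak in LSK replicate 3 (16.0) beside 69.9 to 80.6 in the 6 Delta1 libraries.

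Etv6 +80.1 had the reverse pattern: it stood at 54.9, 53.5 and 62.8 in LSK, 44.5, 45.9 and 40 in IgG and 0 in the 6 Delta1 libraries. Among the 207 it was the only one with a peak in those 6 libraries and none with Delta1 (0.483%), a pattern held by 168 sites genome-wide (background 0.0987%). Sites open in LSK and DN1 but in neither DN2b nor IgG numbered 0 of 207 (background 0.562%). At equal list lengths they numbered 2 of 123 (1.63%, background 0.811%), 1 at Ets1 and 1 at Fli1. Etv6 +80.1 was lower from LSK to DN1 (-57.1 ± 3.42, adjusted p = 8.34e-06), a call lost on the upper 50% of each list (adjusted p = 0.11). LSK ranked above IgG on the lists as deposited (-13.6 ± 3.06, adjusted p = 0.0127), and below it with lists of equal length (11.9, adjusted p = 0.0427), so the order of those groups depends on list length. Etv6 +95.3 was close to this pattern, at 65.0, 37.2 and 58.1 in LSK and 73.4, 70.8 and 81.9 in IgG, with 16.9 in DN1 replicate 2 and 0 in the other DN libraries. Between them lay Etv6 +85.2, at 83.0, 86.2 and 69.3 in IgG and 0 in the 9 other libraries, and Etv6 +99.4 beyond (77.7, 48.3 and 73.6 in IgG, 0 elsewhere).

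Etv6 +20.1 was the only site of the 4 loci open in the 3 LSK libraries and in no other (62.0, 39.8 and 64.3; 0.483%, background 0.649%). At DN2b, Etv6 +4.9 and +112.5 were at 81.0 to 85.4, with a peak in DN2a replicate 1 (63.6 and 27.9) and none in the 9 other libraries. Etv6 +150.8 and +154.3, deep in the gene, were open in all 12 libraries at 77.7 to 96.8 and 58.8 to 92.5 and were called in no comparison among LSK, DN1 and DN2b. Both were higher in DN1 than in IgG (13.3 ± 3.47, adjusted p = 0.0162, and 20.7 ± 6.18, adjusted p = 0.0292), calls lost at equal list lengths (8.2, adjusted p = 0.353, and 6.91, adjusted p = 0.513). Etv6 +154.3 was also lower in IgG than in LSK (-23.9 ± 5.53, adjusted p = 0.0144), and remained so at equal list lengths (adjusted p = 0.0283).

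The Etv6 promoter was split. The site at the annotated start, Etv6 -0.0, stood at 77.0 to 92.7 in the 9 LSK and DN libraries and at 66.6, 0 and 72.6 in IgG, and was called in no contrast. Its upstream neighbour Etv6 -0.5 stood at 80.3 to 92.0 in those 9 libraries and at 0 in the 3 IgG libraries (LSK to IgG -84.0 ± 3.17, adjusted p = 3.24e-07).

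Ets1, the T cell member, had the fewest sites. The peaks below are an IgG-only site (+18.3), a site highest in LSK and DN1 cells (+36.4) and a site open with Delta1 only (+74.3), which also lies in the antisense gene Gm27240.
Ets1 +18.3, chr9:32654437-32654586: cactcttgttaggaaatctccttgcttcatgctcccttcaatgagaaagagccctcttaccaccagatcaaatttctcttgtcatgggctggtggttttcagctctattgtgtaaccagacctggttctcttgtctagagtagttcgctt
Ets1 +36.4, chr9:32672497-32672646: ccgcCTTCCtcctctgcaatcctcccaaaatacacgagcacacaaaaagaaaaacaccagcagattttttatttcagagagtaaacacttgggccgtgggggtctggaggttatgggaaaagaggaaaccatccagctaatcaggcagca
Ets1 +74.3, chr9:32710437-32710586: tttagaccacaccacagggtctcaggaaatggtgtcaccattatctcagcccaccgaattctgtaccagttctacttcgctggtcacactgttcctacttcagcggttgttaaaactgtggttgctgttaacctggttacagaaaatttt

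The start of the protein-coding Ets1 transcripts, Ets1 +59.8, was open in all 12 libraries, at 82.1 to 97.2 in the 9 LSK and DN libraries and at 88.5, 52.8 and 75.4 in IgG, and was called in no contrast. The annotated 5′ end of the gene belongs to a transcript with a retained intron and had a peak only in DN1 replicate 1 and DN2b replicate 2. Presence at the start of the protein-coding transcripts thus did not separate the groups, and the sites that were called lay in introns or, as Ets1 -46.1 and -44.3, between genes.

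Ets1 +74.3 had no peak in LSK or IgG and stood at 67.7 and 42.9 in DN1, 49.4 and 40 in DN2a, and 68.9 and 81.0 in DN2b. At equal list lengths it had a peak in 1 DN1 library and in both DN2b libraries only. Ets1 +36.4 ran the other way, with 83.6, 85.7 and 89.7 in LSK and 68.8 and 64.6 in DN1, then 23.1 and 0 in DN2a, 0 and 44.2 in DN2b, and no peak in IgG. It was lower from LSK to DN2b (-64.2 ± 11.4, adjusted p = 0.00372) and to IgG (-86.3 ± 10.2, adjusted p = 0.000373). Ets1 +109.9 stood at 28.2 and 75.6 in DN2b, against 0 to 14.2 elsewhere, so that only DN2b replicate 2, the longest list, had it at a high rank.

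**Figure D4:**
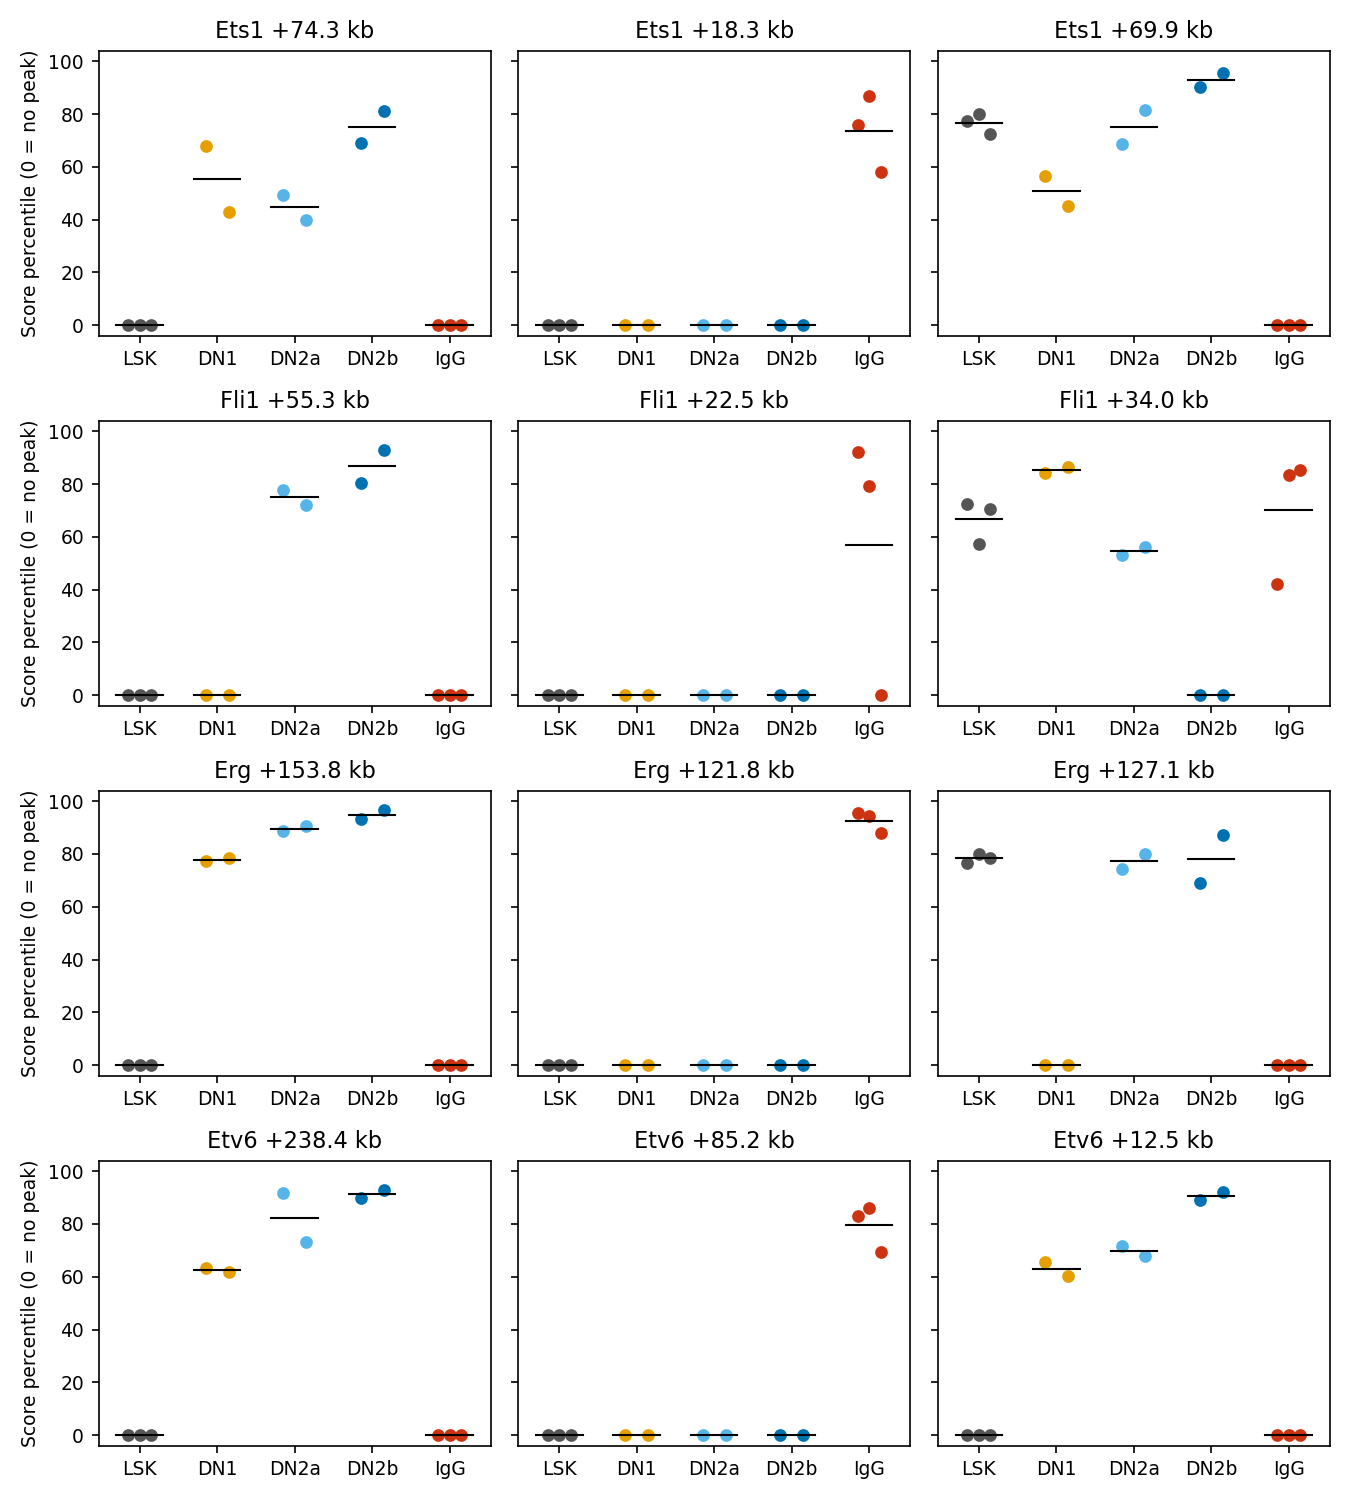
Score percentile within its library (0 where there was no peak) at 12 sites, by group; points are libraries and lines group means. Each row holds 1 gene, with its largest rise from LSK to DN2b, its largest from LSK to IgG and, of the rest, its largest summed change through DN1; Erg +127.1 lies between 68.9 and 87.1 in LSK, DN2a and DN2b and at 0 in DN1 and IgG, and Fli1 +34.0 is at 0 only in DN2b.

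Ets1 +69.9 stood at 77.3, 79.9 and 72.7 in LSK, 56.6 and 45.2 in DN1, then 68.5 and 81.5 in DN2a, with 90.2 and 95.5 in DN2b and none in IgG, but its peaks did not lie at the same place. The highest peak of LSK replicate 1 and of DN1 replicate 1 lay at chr9:32705917-32706066, and those of the DN2b libraries at chr9:32706137-32706286 and chr9:32706177-32706326. Merging only peaks that shared 50 bp split the site, and its main portion then changed by -74.7 from LSK to DN2b (adjusted p = 0.00974) where the merged site rose by 16.3 ± 4.86 (adjusted p = 0.0454), and by 24.1 at equal list lengths (adjusted p = 0.0808). The direction at this site therefore depends on whether adjoining peaks are taken as 1 site.

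Between Ets1 and Fli1, the sites Ets1 -46.1 and -44.3 were open in all LSK and DN libraries, at 40.5 to 80.2 and 61.8 to 82.0. In IgG they stood at 5.63, 26.2 and 0 and at 20.8, 40.9 and 29.5, below every other library. Ets1 +18.3 stood at 76.0, 86.8 and 58.1 in IgG and at 0 elsewhere.

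Sequence was described with short motifs on either strand of the 150 bp peak of each site. The ETS core with its flank, GGAAG or CTTCC, was in 111 of 207 sites (53.6%), against 55.7% of all sites, so the loci of ETS genes did not hold it more often. The RUNX motif TGTGGT was in 30% of the 207, against 23.1%, and in 10 of 21 Ets1 sites. RBPJ, the DNA-binding partner of Notch, was searched as TGGGAA and found in 15.9% against 12.8%. AGATAA, bound by GATA factors, was in 7.73% against 8.29%, the E box CAGCTG in 9.18% against 11.5%, the TCF1 and LEF1 motif CTTTGAA in 4.83% against 3.62%, and AP-1 (TGAGTCA) in 5.8% against 5.96%. No test was made, and a match is not a site of binding. Among the sequences printed above, Ets1 +74.3 held 3 matches to the RUNX motif and Etv6 +12.5 held 2. Of the 6 sites open in IgG only, Erg +121.8, Erg +236.7 and Ets1 +18.3 held none of the 7 motifs, Erg +170.5 held AP-1, Etv6 +85.2 RUNX and Etv6 +99.4 the ETS core.

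The motif shares of the called sites are set beside those of all sites called the same way. Of the 16 sites higher from LSK to DN1, 10 (62.5%) held the RUNX motif, against 41.4% of all such sites, and of the 6 lower, 0, against 17.8%. From DN1 to DN2b RUNX was in 9 of 25 higher (36%, against 38%) and 2 of 7 lower (28.6%, against 33.5%), and from LSK to DN2b in 15 of 39 higher (38.5%, against 39.7%) and 1 of 8 lower (12.5%, against 21%). From LSK to IgG it was in 2 of 8 higher (25%, against 22.5%) and 6 of 23 lower (26.1%, against 22%), and from IgG to DN1 in 16 of 38 higher (42.1%, against 30.2%) and 1 of 10 lower (10%, against 19.3%). In the comparisons of LSK with DN1 and DN2b, RUNX was thus more frequent among sites that rose than among those that fell, at the 4 loci and genome-wide alike. The ETS core was in 12 of 16 sites higher from LSK to DN1 (75%, against 68.2%) and 4 of 6 lower (66.7%, against 64.8%). From DN1 to DN2b it was in 11 of 25 higher (44%, against 51.4%) and in each of the 7 lower (against 77.3%), and from LSK to DN2b in 20 of 39 higher (51.3%, against 55.4%) and 7 of 8 lower (87.5%, against 72%). From LSK to IgG it was in 3 of 8 higher (37.5%, against 61.5%) and 17 of 23 lower (73.9%, against 61.8%), and from IgG to DN1 in 27 of 38 higher (71.1%, against 63.6%) and 4 of 10 lower (40%, against 59.7%). These sets overlap and are small, and no test was made.

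Peak density gave a value per gene, the number of peaks in its window per 10000 peaks of the library. For Erg it was 2.05 ± 0.383 in LSK (SD, n = 3) and 2.69 ± 0.278 in DN1 (n = 2), then 3.23 ± 0.396 in DN2a (n = 2) and 4.34 ± 0.84 in DN2b (n = 2), while IgG had 2.47 ± 1.33 (n = 3). The 2 highest values were those of DN2b replicate 2 (4.93) and IgG replicate 1 (4.0), the latter far from the other IgG libraries (1.82 and 1.60). The log2 change from LSK to DN2b was 1.04 ± 0.29 (SE), which did not pass limma over 18366 genes (adjusted p = 0.0802; background 0.506% higher), nor at equal list lengths (adjusted p = 0.0676). It passed with an offset of 1 peak (adjusted p = 0.0421), on the upper 50% of each list (adjusted p = 0.0252) and without IgG replicate 1 or 3 (adjusted p = 0.0166 and 0.0461), and in no other alternative, the adjusted p reaching 0.337 without DN2b replicate 2.

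For Etv6 the density was 2.65 ± 0.291 in LSK and 2.51 ± 0.323 in DN1, then 2.88 ± 0.886 in DN2a and 3.85 ± 1.0 in DN2b, while IgG had 4.13 ± 1.27. It was lower in DN1 than in IgG (log2 change -0.70 ± 0.25, adjusted p = 0.0479; background 15.9%), and this call was lost in many alternatives: at equal list lengths (-0.15, adjusted p = 0.778), on the upper 50% of each list (-0.52, adjusted p = 0.128), with a window of 100 kb (-0.56, adjusted p = 0.0596), without IgG replicate 1 (-0.47, adjusted p = 0.173), without DN1 replicate 1 or 2 (-0.57 and -0.83, adjusted p = 0.274 and 0.105) and without any 1 of the LSK libraries (-0.70 in each case, adjusted p = 0.0584 to 0.0616). The log2 change from LSK to IgG was 0.61 (adjusted p = 0.052), and over the alternatives the adjusted p ran from 0.0241 with a window of 100 kb to 0.369 at equal list lengths. Fli1 ranged from 2.65 ± 0.527 in DN1 to 3.65 ± 0.516 in LSK and Ets1 from 1.11 ± 0.197 in DN2b to 1.7 ± 0.686 in IgG, and neither gene passed in any contrast on the lists as deposited. At equal lengths Fli1 was lower in IgG than in LSK (-0.63, adjusted p = 0.0375; background 11.8%).

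The other ETS genes were examined in the same way, 22 of 23 listed genes having enough peaks and a match in the annotation. From LSK to DN1, DN1 to DN2b and LSK to DN2b, 0 of the 22 passed limma (background 0.0762% higher and 0.0544% lower, 0% and 0.0272%, and 0.506% and 0.768%). An unadjusted p below 0.05 was found for 2, 0 and 3 of them, against 11.2%, 8.24% and 15.9% of all genes. With lists of equal length 20 could be tested, and some passed. Etv1 and Etv4, of the PEA3 subfamily, were called lower from LSK to DN1 (background 2.34%) and to DN2b (background 7.72%), on few peaks. Etv1 then had 2, 2 and 1 peaks in LSK and 0 in each of the 6 Delta1 libraries, so its fold is set by the offset and is not given, and on the lists as deposited it was not called (from LSK to DN1 -0.65, adjusted p = 0.658). Etv4 then had 3, 4 and 4 peaks in LSK and 2 in each Delta1 library (-0.73 ± 0.13, adjusted p = 0.0219 for DN1 and 0.00956 for DN2b), whereas on the lists as deposited the direction was the opposite (0.27, adjusted p = 0.735, and 0.01, adjusted p = 0.991). Elf2 was lower from DN1 to DN2b (-0.46 ± 0.10, adjusted p = 0.0401; background 2.28%), with 16 and 16 peaks against 12 and 11.

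From LSK to IgG, 3 of the 22 were higher (background 13.8%) and 3 lower (background 10.8%). The higher ones were Spi1, which encodes the myeloid and B cell factor PU.1 (log2 change 0.62 ± 0.19, adjusted p = 0.0263), Etv4 (0.69 ± 0.24, adjusted p = 0.0456) and the repressor Erf (0.47 ± 0.17, adjusted p = 0.0458). With lists of equal length Spi1 (adjusted p = 0.0423) and Etv4 (adjusted p = 0.0117) passed again, whereas Erf did not (-0.03, adjusted p = 0.903), and Etv1 passed as well (0.97, adjusted p = 0.0102; background 9.99%). The lower ones were Fev (-1.63 ± 0.53, adjusted p = 0.0341) and the epithelial factors Elf5 (-0.69 ± 0.23, adjusted p = 0.0405) and Ehf, which had no peak in any IgG library (adjusted p = 0.00924). With equal lists Elf5 did not pass (adjusted p = 0.517), Fev and Ehf had too few peaks to be tested, and Elf3 was lower (-0.43, adjusted p = 0.0378; background 11.8%).

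From IgG to DN1, Ehf was higher (background 8.03%) and Etv1, Etv3, Elk1, Elf1, Spib and Erf were lower (background 15.9%). Of the latter only Etv1 was also called at equal list lengths, with 3, 4 and 4 peaks in IgG and 0 in DN1, together with Etv4 (-1.30, adjusted p = 0.000541; background 8.67%), with 6, 6 and 5 peaks against 2 and 2. The adjusted p of the other 5 was then 0.0607 (Spib) to 0.74 (Elf1), and the log2 change of Erf turned from -0.75 to 0.12 (adjusted p = 0.504).

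Over the 12 libraries, the genes whose peak density followed that of a member most closely were, among 13511 compared, Iqce, Cndp2 and Khnyn for Ets1 (Pearson r = 0.914, 0.913 and 0.898), Cmas, Ttc36 and Tmem25 for Fli1 (0.874, 0.848 and 0.848), Dgkh, Pdcd4 and Chdh for Erg (0.894, 0.889 and 0.865), and Rom1, Pdxp and Gm49510 for Etv6 (0.919, 0.914 and 0.912). The libraries share list length as well as group across these genes, and the values are a description.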

How the data were processed

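DNase-seq was done on 12 mouse libraries in 5 groups named from the deposited labels. The authors aligned reads to mm10 (BWA 0.7.12 and SAMtools 1.2 stand in the submitters' processing notes) and called peaks in each library by hotspot2 (false discovery rate 0.05). Each deposited list holds 150 bp peaks with a whole-number score from 1 to 150, whose meaning is not given in the sources used here; reads and depth were not used here. The score was turned into a percentile within its list (autosomes and X). Peaks that overlapped by 1 bp or more were merged, and a site's level was its highest percentile, or 0.

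Sites with a peak in at least 2 libraries were fitted with limma 3.58.1 (R 4.3.3) over all 5 groups, with Benjamini-Hochberg adjustment over all sites and a threshold of 0.05. Peak density per gene, log2 of (peaks + 0.5) per 10000, was fitted by limma with a trend over 18366 protein-coding genes with a mean of at least 1 peak. According to the study's methods replicates came from independent LSK isolates and, for DN cells, separate inductions, but not from which isolate each library came; p-values measure the spread between these libraries. In simulated data for LSK to DN2b (114527 sites), 51.5% of sites moved by 60 points and 26% of those moved by 30 were called, and 0.0166% of unmoved ones. Only 200 sites were moved by each amount, all of low mean percentile, and the noise was normal. The real lists have many more called sites and many groups at 0, so these rates are not those of the test on these data.

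The study tested reads, which a rank test on lists does not replace. Annotation was GENCODE, and sequence the RefSeq copy of GRCm38. Members and lists were chosen with earlier results of these data known. Listed for naming were sites at member starts with peaks in 3 or more libraries, the 2 of highest median rank, and the most changed called sites, up to 3 per gene, contrast and direction. Not all of these are described. Sequences, the sites by pattern, the 30 kb stretches and the DN2a split were picked after values were seen. Alternatives were equal list lengths, the upper 50% of each list, merging by 50 bp of overlap or across 150 bp, no filter, robust variance with a trend, windows of 25 and 100 kb, an offset of 1 peak, and leaving out each library.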

Additional observations from a re-analysis of the deposited data

How the results depend on the processing

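No paired analysis was possible because the libraries carry replicate numbers given only in accession order and the labels do not tie DN libraries to an LSK isolate. With each list cut to 32952 peaks, sites higher numbered 7 of 86 from LSK to DN1 (8.73% of all sites), 24 from LSK to DN2b (14%) and 17 from IgG to DN1 (16.6%), and with the upper 50% of each list 5 of 79 were lower from LSK to DN2b (4.82%); fewer sites entered both. Counting sites open in every library of a group and in none of the other, with no test, gave 4 lower from DN1 to DN2b (5.27% of all sites), 5 lower from LSK to DN2b (2.73%) and 15 lower from LSK to IgG (7.87%). Leaving out each library in turn gave, for sites higher and lower respectively, 10 to 18 and 5 to 7 from LSK to DN1, 14 to 28 and 3 to 13 from DN1 to DN2b, 21 to 41 and 7 to 10 from LSK to DN2b, 8 to 16 and 22 to 23 from LSK to IgG, and 30 to 41 and 8 to 17 from IgG to DN1. The shares of all sites in those fits were, in the same order, 7.33% to 18.7% and 1.63% to 2.99%, 4.51% to 13.6% and 4.32% to 12.8%, 10.2% to 27.3% and 3.59% to 6%, 4.39% to 5.79% and 13.3% to 20%, and 19.4% to 39.8% and 3.84% to 5.45%. Where 1 library of a group of 2 was left out, the lone one was taken to vary like the other groups. The direction turned at 2 sites: Etv6 +80.1 from LSK to IgG (11.85 at equal list lengths, adjusted p = 0.0427, where the percentiles are of the shorter lists), and Ets1 +69.9 with merging at 50 bp, which splits it (-50.89 from DN1 to DN2b, adjusted p = 0.0973, and -74.72 from LSK to DN2b, adjusted p = 0.00974). At equal list lengths 32 of 150 values for single sites or genes no longer passed the threshold, 12 of them from IgG to DN1 and 8 from LSK to DN1. They include both of these contrasts at Erg +67.2, Etv6 +12.5, Etv6 +238.4 and Ets1 +74.3, each contrast of Etv6 +20.1 with LSK, and IgG to DN1 at Fli1 -13.7 and Ets1 -46.1 and -44.3. On the upper 50% of each list 26 of 148 were lost, among them those of Etv6 +80.1, +20.1, +95.3 and +99.4; the cause was not tested. Unknown read depth limits every absence: a site without a peak may be open below the caller's threshold, most of all in the short IgG lists.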
